A study of Mus musculus with 12 samples.

Results

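The nuclear genes of the mitochondrial respiratory chain and of the ATP synthase were followed in mouse gastruloids treated with a glycolysis inhibitor or with altered glucose. The genes were chosen by symbol alone: those beginning with *Nduf*, *Uqcr*, *Cox4* to *Cox8* or *Atp5*, and *Sdha* to *Sdhd*, without symbols ending in -ps, which marks pseudogenes. This gave 97 of the 38911 genes counted: 40 for subunits of complex I, 8 for complex I assembly factors, 4 for complex II, 8 for complex III, 20 for complex IV and 17 for complex V, the ATP synthase. *Ndufa4* and *Ndufa4l2* carry complex I names and were placed with complex IV, to which Ndufa4 is now assigned.

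Gastruloids are aggregates of embryonic stem (ES) cells that break symmetry and grow a body axis. They were made from E14TG2a mouse ES cells kept in 2iLIF (medium with a pair of kinase inhibitors and leukemia inhibitory factor), with 200 cells per gastruloid in every group, received the Wnt agonist CHIR on day 2, were treated from day 3 to day 4 and were harvested on day 4. The 1X glucose medium held 21.25 mM glucose, the 0X medium 0 mM (labelled No Glucose) and the 3X medium 63.75 mM, and the 2-DG group received 5 mM 2-deoxy-D-glucose in 1X glucose. 2-DG is a glucose analog that hexokinase phosphorylates and that then blocks glycolysis. It also resembles mannose and can take its place in N-linked glycans, and these actions cannot be told apart in these libraries. The glucose media also contained sodium pyruvate, a respiratory fuel that does not need glycolysis. Each group had 3 polyA RNA libraries, 1 each from ES cells of passages 13, 15 and 16, all of the same single line. Each library pooled the gastruloids of its treatment from a plate. The 12 libraries held 31902471 to 45956080 counts. Genes that mark primitive streak and mesoderm summed to 282.8 to 743.4 CPM (counts per 1000000 counts of the library, scaled by TMM factors), against 1.025 to 2.188 for muscle and heart genes and 8.239 to 12.94 for fibroblast feeder genes. Summed pluripotency markers stood at 23.21 to 63.09 CPM, although the labels name the cell type as ES cells. The passage 13 libraries stood apart from the others, as described with the passages below.

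Complex I takes electrons from NADH, complex II takes them from succinate, complex III passes them from ubiquinol to cytochrome c, and complex IV gives them to oxygen. Complexes I, III and IV pump protons across the inner mitochondrial membrane, and the ATP synthase uses the returning protons to make ATP. Most subunits are nuclear-encoded and must be assembled with subunits made inside the mitochondrion, where mitochondrial DNA supplies part of every complex except complex II. Cells in which glycolysis is limited can still make ATP by this route from pyruvate, fatty acids or glutamine. Bulk libraries of this kind cannot tell a smaller number of cells of a type from less RNA per cell.

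All but 4 of the genes were measurable. *Cox8b*, the heart and muscle isoform of subunit 8, and *Cox8c*, its testis isoform, had 0 counts in all 12 libraries, which leaves room for up to 3 counts in a library. *Cox6a2*, the heart and muscle isoform of subunit 6A, and *Cox7b2*, an isoform of subunit 7B, had at most 4 counts in any library. These 4 genes of complex IV did not pass the filter on low counts, and the other 93 genes were tested. *Ndufa11b*, a transcribed pseudogene by its RefSeq type despite its plain symbol, had 14 to 27 counts. Counts of *Ndufb4*, *Ndufb4b* and *Ndufb4c*, of *Ndufs5* and *Cox7c*, and of their pseudogenes may have been divided differently between near-identical copies, so these values are uncertain.

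The complexes took steady shares of the counts. Of the reads on all 97 genes, the ATP synthase took 37.5% to 39.7% in the 12 libraries, complex I subunits 25.9% to 27.5%, complex IV 16% to 17.1%, complex III 9.38% to 9.83%, complex II 5.88% to 6.56% and complex I assembly factors 1.98% to 2.46%. Together the genes took 8715 to 9861 CPM. The 13 protein-coding transcripts of mitochondrial DNA took 19590 to 22390 CPM in the same libraries.

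Levels were compared between genes only as CPM per kilobase of the longest coding transcript listed. On this scale the most abundant were *Atp5b*, the catalytic beta subunit of the ATP synthase, at a mean of 546 (507 to 581), and *Cox4i1*, the general isoform of subunit 4, at 397 (371 to 409). The highest of the other complexes were *Ndufa7* at 187 (173 to 205), *Uqcrh*, the hinge protein of complex III, at 203 (182 to 233), and *Sdha*, the flavoprotein that oxidizes succinate, at 95.4 (90.0 to 101). *Ndufaf2* led the assembly factors at 35.6 (29.1 to 41.5). At the lower end were *Sdhc* at 31.2, *Uqcrq* at 40.8, *Ndufaf7* at 6.38, *Atp5md* at 19.4 and *Ndufb2* at 5.35. The listed transcripts of *Atp5md* (2733 bases) and *Ndufb2* (4371 bases) are long for this family, whose median is 875 bases, and these per-length levels depend on which transcript is used.

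Where complex IV and the ATP synthase have a choice of isoform, the general form was the abundant one. Per kilobase, *Cox4i1* exceeded *Cox4i2*, the lung-type isoform, 258- to 608-fold in the 12 libraries. *Cox7a2*, the general isoform of subunit 7A, exceeded the muscle isoform *Cox7a1* 103- to 263-fold, and *Ndufa4* exceeded *Ndufa4l2*, known as hypoxia-inducible, 136- to 965-fold. *Cox6b2*, known as the testis isoform of subunit 6B, was well expressed, and *Cox6b1* exceeded it only 3.0- to 5.97-fold. The c-ring of the ATP synthase, the rotor that protons turn, is encoded by 3 genes, of which *Atp5g3* was 1.83 to 2.25 times as abundant per kilobase as *Atp5g2* and 13 to 14.4 times as abundant as *Atp5g1*. The last ratio rests on a listed *Atp5g1* transcript of 4715 bases, the longest of all these genes, and would be smaller if a shorter transcript were used. The remaining isoforms of the fixed families stood at means of 151 CPM per kilobase for *Cox6a1*, 114 for *Cox7b*, 210 for *Cox8a* and 116 for *Atp5k*.

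**Figure D1:**
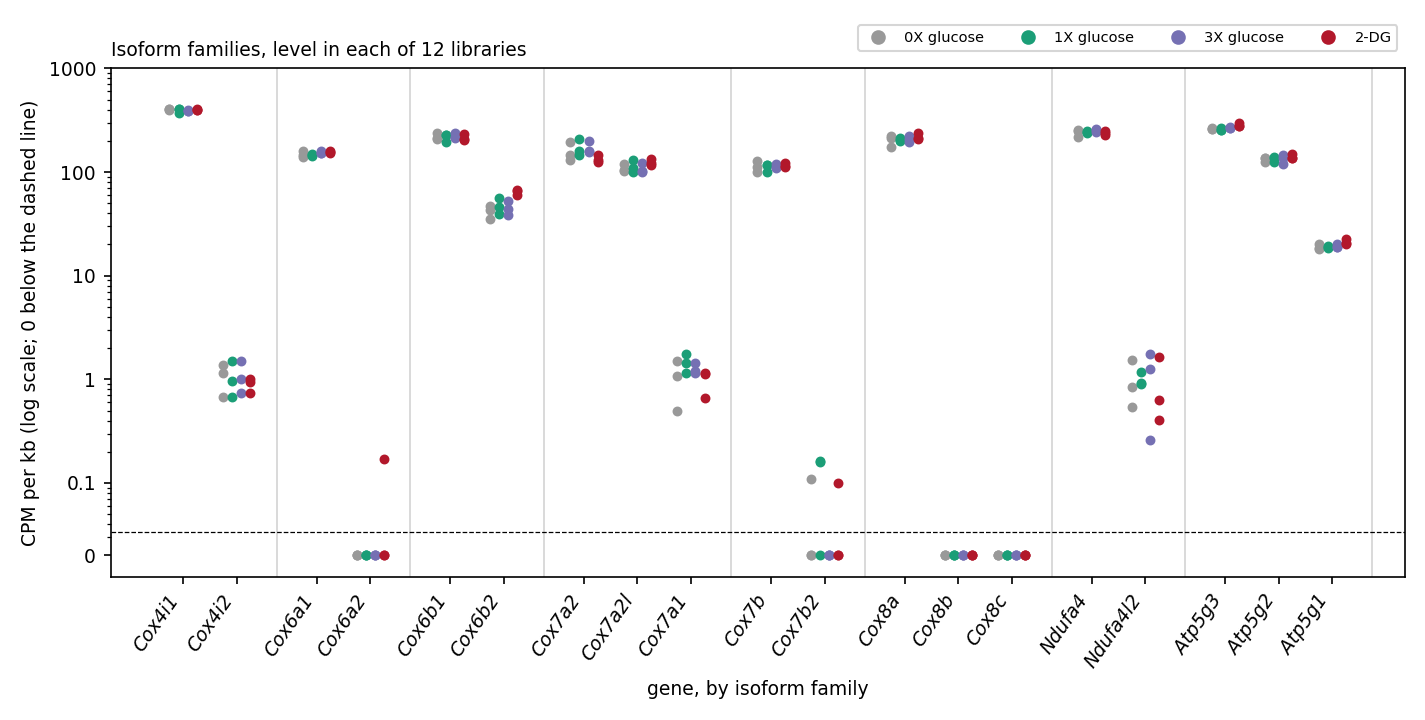
Level of the isoforms of complex IV and ATP synthase subunits, as CPM per kilobase of transcript on a log axis, with 1 point for each of the 12 libraries coloured by treatment and genes with 0 counts drawn below the dashed line. *Cox4i1* is at 371 to 409, while *Cox4i2*, *Cox7a1* and *Ndufa4l2* have means of 1.02, 1.18 and 0.991, and *Cox6b2* lies between these and *Cox6b1*.

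The comparison of 2-DG with 1X glucose asked whether 1 day of 2-DG changed the RNA of the oxidative machinery. Few of these genes differed. By edgeR's quasi-likelihood test with Benjamini-Hochberg adjustment over all genes, 3 of 93 genes rose and 2 fell at an adjusted p under 0.05, which is 5.38% against 17.6% of all 16966 genes tested (9.12% higher and 8.51% lower). The median log2 fold change of the 93 genes was 0.002, the same as that of all genes, with 48 above 0 and 45 below. The estimates of 90 of the 93 lay within 1.25-fold of no change, and the 95% interval of 67 lay wholly inside that range. The ranges of the libraries did not overlap for 19 of the genes (20.4%), against 35.4% of all genes, and 9 of these were higher with 2-DG and 10 lower.

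The passage of the ES cells pairs the libraries of different groups, and adding it to the fit as a block changed the counts. With passage as a block, 9 genes rose and 12 fell, and 41.3% of all genes were called (21.1% higher and 20.2% lower). These 21 included the 5 genes called without the block, and each of the 21 moved in the same direction in all 3 passages. By complex, the block gave 3 higher and 5 lower of 40 complex I subunits, 2 lower of 8 assembly factors, none of complex II or III, 2 higher and 1 lower of 16 complex IV genes, and 4 higher and 4 lower of 17 ATP synthase genes. Without the block the calls were 1 higher and 2 lower in complex I and 2 higher in the ATP synthase.

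**Figure D2:**
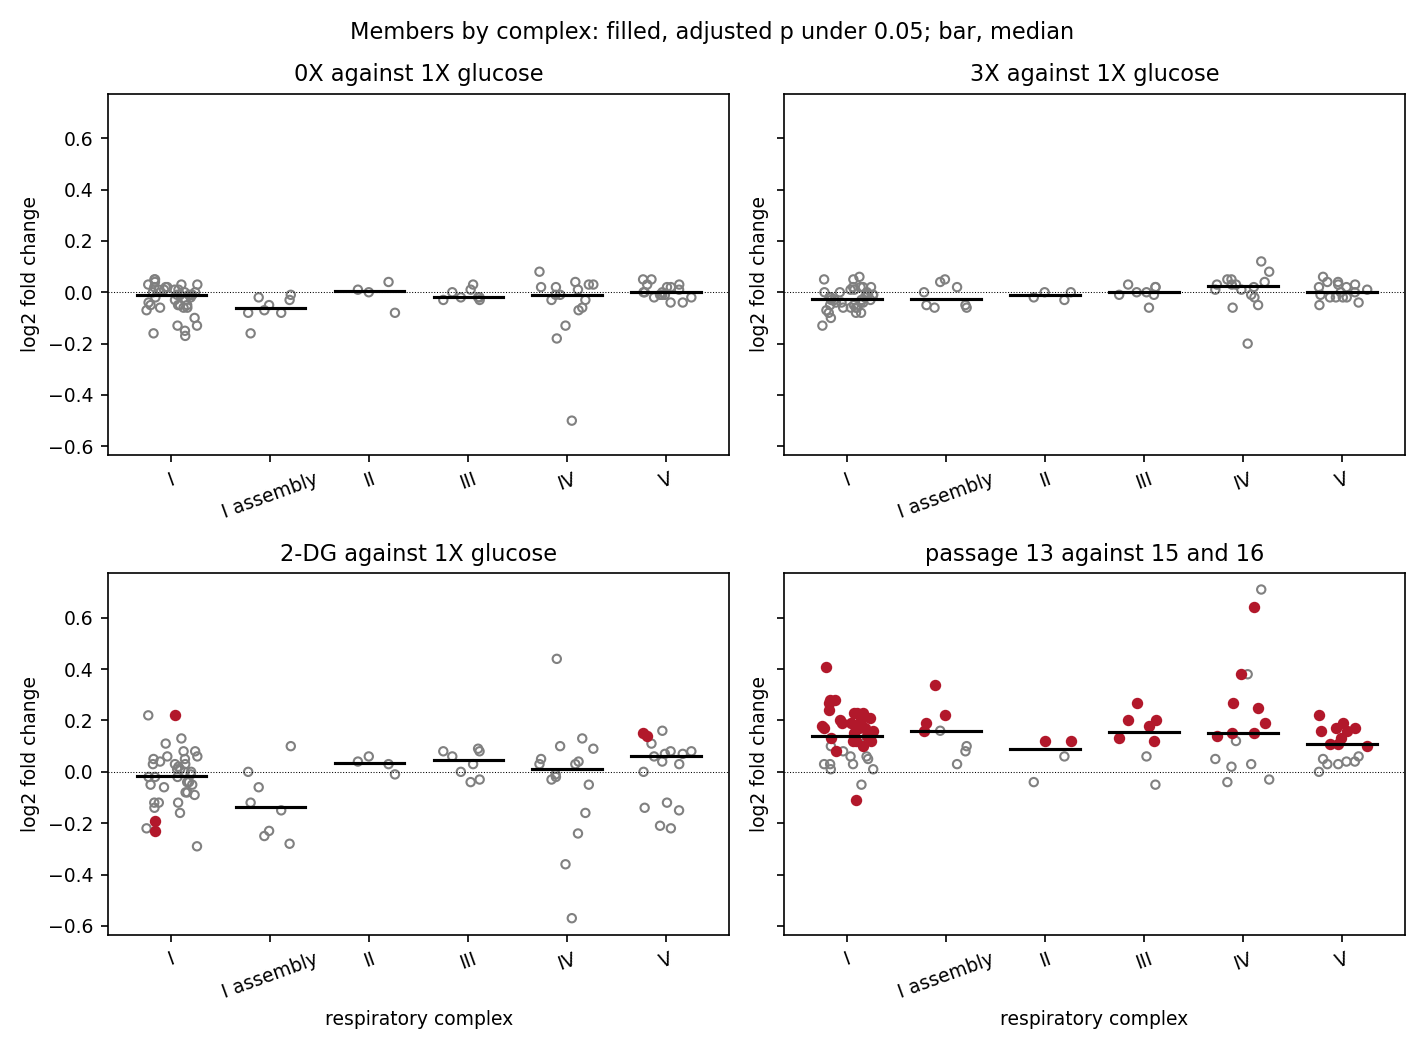
Fitted log2 fold change of each tested gene (1 point), grouped by complex, in 2-DG, 0X and 3X glucose against 1X glucose and in passage 13 against passages 15 and 16. Filled points passed an adjusted p of 0.05 without a block and bars are medians. With 2-DG 5 genes are filled, with 0X and 3X glucose none, and with passage 13 there are 57, of which 56 lie above 0.

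In complex I, the called genes moved in both directions. *Ndufv1* encodes the flavoprotein that binds NADH and passes its electrons to FMN. It stood at 139, 125 and 118 CPM in the 1X libraries of passages 13, 15 and 16 and at 115, 104 and 106 CPM with 2-DG. All 2-DG libraries lay below all 1X libraries, and the fall was 0.23 on the log2 scale (log2 fold change −0.23, SE 0.07, adjusted p = 0.0363, edgeR). *Ndufb7*, an accessory subunit of the membrane arm, was at 73.5, 71.1 and 69.0 CPM in 1X glucose and at 63.5, 60.4 and 63.8 CPM with 2-DG, again without overlap (log2 fold change −0.19, SE 0.05, adjusted p = 0.0287). *Ndufb10*, another accessory subunit of the same arm, went the other way. It was at 52.1, 50.5 and 48.2 CPM in 1X glucose and at 62.5, 59.1 and 54.4 CPM with 2-DG (log2 fold change 0.22, SE 0.06, adjusted p = 0.0249), and the groups did not overlap. In 0X and 3X glucose these genes remained near their 1X values: *Ndufv1* was at 120 to 134 CPM, *Ndufb7* at 67.7 to 76.6 CPM and *Ndufb10* at 49.0 to 51.9 CPM in those 6 libraries.

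With only 3 libraries per group, these calls lay near the threshold and were lost in most fits that left out 1 library. Leaving out each library in turn gave log2 fold changes of −0.29 to −0.17 for *Ndufv1* and −0.21 to −0.16 for *Ndufb7*. For *Ndufb10* they were 0.17 to 0.28. *Ndufv1* remained past the threshold without the 1X library of passage 16 (adjusted p = 0.0257) or the 2-DG library of passage 13 (0.0383), and moved to 0.0742 to 0.125 when any of the other 4 libraries of the comparison was left out. *Ndufb7* remained so only without the 1X library of passage 16 (0.0375), and was at 0.0561 to 0.103 without any of the other 5. *Ndufb10* remained without the 1X library of passage 13 (0.0333) or the 2-DG library of passage 16 (0.0135) and was at 0.0792 to 0.09 without any of the other 4, all by edgeR's quasi-likelihood test.

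The sequences just upstream of these genes are shown because nuclear genes of respiration are known targets of the factors NRF1, GABPA (an ETS protein), YY1 and ESRRA. Each line gives the 100 bases before the transcript start in RefSeq's table for GRCm38.p6, written on the strand of the gene, with capitals marking copies of the letters searched on both strands: GCATGCGC for NRF1, CCGGAAG for ETS proteins, AAGATGGC for YY1 and TCAAGGTCA for ESRRA. *Ndufv1* (chr19:4007499-4012755, minus strand) and *Ndufb10* (chr17:24722060-24724423, minus strand) held none of them, *Ndufb7* (chr8:83566758-83571623, plus strand) held the ETS letters 20 bases before its start, and *Atp5g3* (chr2:73908447-73912464, minus strand) held the ESRRA letters on the opposite strand, where they read TGACCTTGA, 52 bases before its start. The *Atp5g3* stretch lies inside the span of the gene, upstream of the start that the table lists. *Uqcr11* and *Ndufa11*, both higher in passage 13, are added for an ETS copy and for a pair of overlapping NRF1 copies on opposite strands.
Ndufv1, chr19:4012756-4012855: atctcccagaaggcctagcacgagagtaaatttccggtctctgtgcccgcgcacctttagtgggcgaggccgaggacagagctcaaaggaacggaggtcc
Ndufb10, chr17:24724424-24724523: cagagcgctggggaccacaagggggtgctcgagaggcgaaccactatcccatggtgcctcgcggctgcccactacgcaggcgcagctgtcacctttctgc
Ndufb7, chr8:83566658-83566757: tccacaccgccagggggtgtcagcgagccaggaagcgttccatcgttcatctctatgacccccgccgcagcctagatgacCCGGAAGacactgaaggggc
Atp5g3, chr2:73911327-73911426: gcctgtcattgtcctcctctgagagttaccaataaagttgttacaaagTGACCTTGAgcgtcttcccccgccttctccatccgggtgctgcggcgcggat
Uqcr11, chr10:80406822-80406921: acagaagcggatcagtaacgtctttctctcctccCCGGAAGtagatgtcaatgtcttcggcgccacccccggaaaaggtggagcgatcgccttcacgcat
Ndufa11, chr17:56717662-56717761: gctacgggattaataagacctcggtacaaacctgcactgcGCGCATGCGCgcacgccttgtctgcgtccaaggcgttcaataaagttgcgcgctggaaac

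Over the window from 250 bases before to 50 bases after the start, these letters were searched in the 78 of the 97 genes that the table holds and in all 17492 protein-coding genes of the table. NRF1 letters were present in 15.4% of the 78 genes and 3.94% of all genes, ETS letters in 24.4% and 12.9%, YY1 letters in 14.1% and 3.57%, and ESRRA letters in 2.56% and 0.377%. Among the 9200 genes of the table with a mean of at least 100 counts, a background closer to these abundant genes, the shares were 6.59%, 21.3%, 5.61% and 0.304%. A copy of the letters is a description of the sequence and says nothing of binding in these cells.

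The ATP synthase had the most genes above 0 with 2-DG, 11 of 17, with a median log2 fold change of 0.058. *Atp5a1*, the alpha subunit of the catalytic head, was at 850, 864 and 825 CPM in 1X glucose and at 964, 936 and 915 CPM with 2-DG. The groups did not overlap, and the gene rose by 0.15 on the log2 scale (SE 0.04, adjusted p = 0.0278, edgeR), a fold of 1.11. *Atp5g3*, the leading c-ring gene, was at 194, 183 and 182 CPM in 1X glucose and at 214, 204 and 200 CPM with 2-DG, and rose by 0.14 (SE 0.04, adjusted p = 0.0375). These calls too lay near the threshold and were lost in most fits that left out 1 library. In those fits together, the log2 fold change was 0.13 to 0.17 for *Atp5a1* and 0.11 to 0.17 for *Atp5g3*. *Atp5a1* remained past the threshold only without the 2-DG library of passage 16 (adjusted p = 0.0318) and was at 0.0544 to 0.0828 without any of the other 5, and *Atp5g3* only without the 1X library of passage 13 (0.0314), and was at 0.0514 to 0.148 without any of the other 5. When the most abundant *Atp5g3* transcript was counted alone, its log2 fold change was −0.02.

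Within the enzyme, genes moved in both directions. With passage as a block, the genes of the catalytic head and c-ring *Atp5a1*, *Atp5b*, *Atp5g1* and *Atp5g3* rose, and *Atp5h*, *Atp5j*, *Atp5j2* and *Atp5md* fell. *Atp5b* was at 1030, 1030 and 972 CPM in 1X glucose and at 1110, 1090 and 1060 CPM with 2-DG (log2 fold change 0.11, adjusted p = 0.0897, and 0.0137 with the block). *Atp5g1* was at 89.9, 91.7 and 87.0 CPM against 108, 96.1 and 96.6 CPM (0.16, adjusted p = 0.0793, and 0.027 with the block). Neither gene overlapped between the groups.

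The 4 genes that fell with the block encode peripheral stalk and membrane subunits, but other genes of those parts did not pass the test. *Atp5j2*, membrane subunit f, was at 108, 97.9 and 89.8 CPM in 1X glucose and at 91.2, 78.4 and 86.1 CPM with 2-DG (log2 fold change −0.21, adjusted p = 0.12, and 0.00479 with the block by edgeR). *Atp5md*, the small membrane subunit DAPIT, was at 57.7, 56.5 and 50.7 CPM against 49.7, 44.6 and 47.6 CPM (−0.22, adjusted p = 0.123, and 0.00997 with the block). *Atp5h*, subunit d of the peripheral stalk, was at 116, 111 and 103 CPM against 102, 93.7 and 102 CPM (−0.15, adjusted p = 0.0739, and 0.0225 with the block). *Atp5j*, coupling factor 6 of the same stalk, had a log2 fold change of −0.14 (adjusted p = 0.245, and 0.0113 with the block). The other genes of the stalk, *Atp5o* (0.08) and *Atp5pb* (0.06), and of the membrane part, *Atp5l* (0.04), *Atp5mpl* (0.03) and *Atp5k* (−0.12), passed in neither fit, nor did *Atp5g2* (0.07). No test compared the parts of the enzyme with each other. Across all tested genes, those whose longest coding transcript was under 1000 bases had a median log2 fold change of −0.068 with 2-DG. Of these 684 genes, 34 were called higher and 95 lower. Among the respiratory chain and ATP synthase genes, the short ones had median log2 differences of 0.002, −0.031 and 0.038 in passages 13, 15 and 16. Those of 1000 bases or more had −0.008, −0.027 and 0.047. Of the ATP synthase genes called with the block, *Atp5g3* (723 bases) rose and *Atp5md* (2733 bases) fell. The others that rose were longer than 1000 bases, and the others that fell were shorter. The part of transcript length in the result was not tested.

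**Figure D3:**
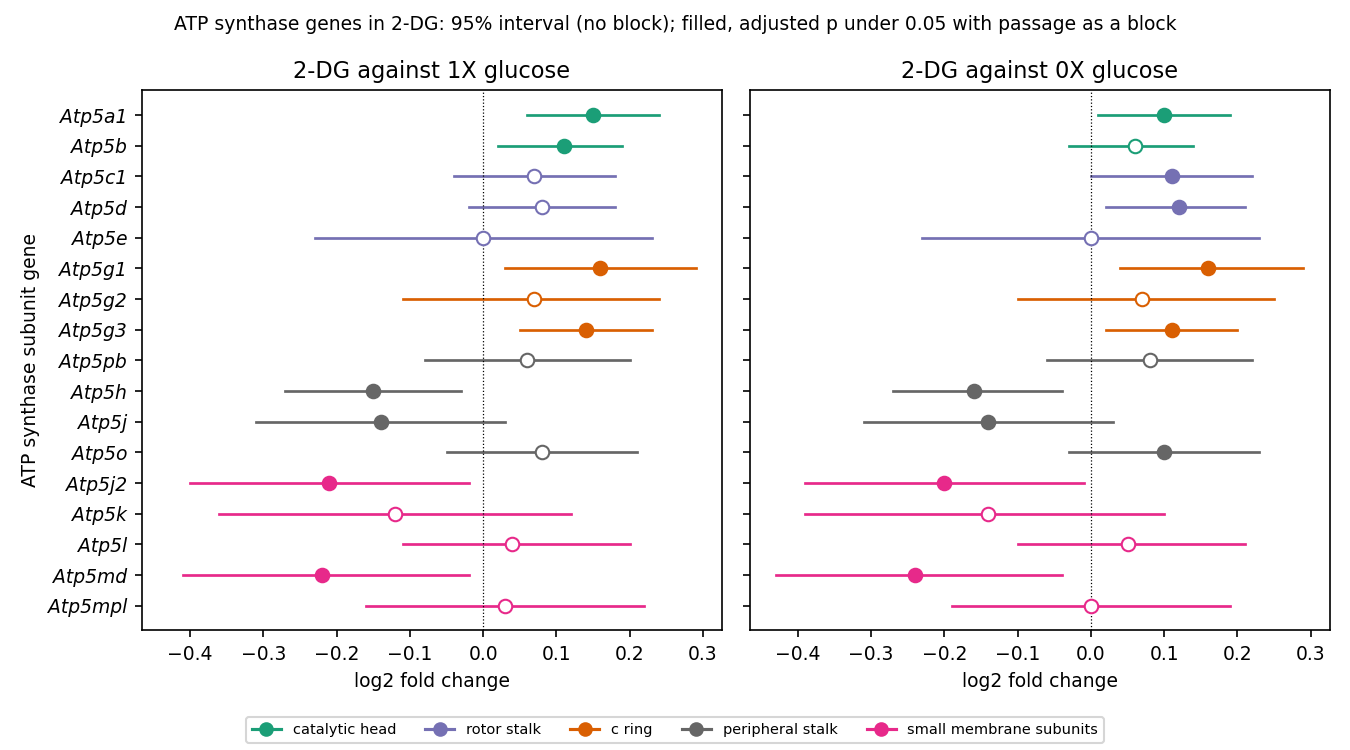
Log2 fold change of the 17 ATP synthase genes with 95% interval from the fit without a block, for 2-DG against 1X glucose and against 0X glucose, coloured by part of the enzyme. Points filled for an adjusted p under 0.05 with passage as a block show *Atp5a1*, *Atp5b*, *Atp5g1* and *Atp5g3* above 0 against 1X glucose and *Atp5h*, *Atp5j*, *Atp5j2* and *Atp5md* below.

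Added over its 17 genes, the ATP synthase stood at 3625, 3558 and 3372 CPM in the 1X libraries of passages 13, 15 and 16 and at 3870, 3645 and 3636 CPM with 2-DG. The groups did not overlap, but the highest 1X library and the lowest 2-DG library lay close together. The means were 3518 ± 131 CPM in 1X glucose, 3717 ± 133 in 2-DG, 3574 ± 65.8 in 0X and 3565 ± 51.3 in 3X glucose (SD, n = 3 each). These sums are led by *Atp5b* and *Atp5a1* and were not tested.

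In complex IV no gene passed the test without the block (edgeR, 1 gene at an unadjusted p under 0.05), and DESeq2 called 1, higher. *Cox6b2* was at 32.9, 23.0 and 26.9 CPM in 1X glucose and at 38.3, 35.0 and 39.4 CPM with 2-DG, without overlap. Its log2 fold change was 0.44 (SE 0.15, adjusted p = 0.0671), and with passage as a block 0.46 (adjusted p = 0.000526). Without the 1X library of passage 13 it passed without the block as well (adjusted p = 0.0309), and its most abundant transcript alone gave 0.17. Its general partner *Cox6b1* was at 122 to 142 CPM in 1X glucose and 125 to 143 CPM with 2-DG (−0.02, adjusted p = 0.878). The ratio of *Cox6b1* to *Cox6b2* per kilobase was 3.34 ± 0.294 with 2-DG, against 4.7 ± 0.915 in 1X, 5.34 ± 0.546 in 0X and 4.96 ± 0.552 in 3X glucose (SD, n = 3 each).

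*Cox7a2* was at 138, 104 and 96.9 CPM in 1X glucose and at 95.4, 82.1 and 85.9 CPM with 2-DG. The lowest 1X library lay just above the highest 2-DG library, and the log2 fold change was −0.36 (SE 0.17, adjusted p = 0.172), or −0.35 with the block (adjusted p = 0.00169, edgeR). *Cox7a2l*, a member of the 7A family known for joining complexes III and IV into supercomplexes, was at 147, 123 and 112 CPM against 150, 131 and 137 CPM. Its log2 fold change was 0.13 (adjusted p = 0.476, and 0.0254 with the block), with overlapping groups, and −0.50 when its most abundant transcript, which had 0 counts in 3 libraries, was counted alone. The ratio of *Cox7a2* to *Cox7a2l* per kilobase was 1.08 ± 0.00789 with 2-DG and 1.51 ± 0.0809 in 1X glucose, with 1.43 ± 0.18 in 0X and 1.58 ± 0.0592 in 3X glucose, so that the 2-DG libraries lay below all others.

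The rarer isoforms moved within wide limits with 2-DG. *Cox4i2* had a log2 fold change of −0.24 (95% interval −1.05 to 0.58), *Cox7a1* of −0.57 (−1.37 to 0.24) and *Ndufa4l2* of −0.16 (−1.58 to 1.25), each on 8 to 56 counts per library. Differences inside these intervals were not detectable in this fit without the block. *Ndufa4l2* had 56, 8 and 48 counts in the 3X libraries of passages 13, 15 and 16. How far low counts or the spread between passages set the widths was not tested. The abundant ones were better fixed: *Cox6a1* at 0.09, *Cox7b* at 0.05, *Cox8a* at 0.10 and *Ndufa4* at −0.03, none past the threshold.

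Of the 8 complex I assembly factors, 6 lay below 0 with 2-DG, with a median log2 fold change of −0.132, and none passed without the block (edgeR, 2 at an unadjusted p under 0.05), while DESeq2 called 1, lower. *Ndufaf2*, an assembly factor related to the subunit Ndufa12, was at 25.5, 27.8 and 23.7 CPM in 1X glucose and at 21.4, 19.7 and 22.5 CPM with 2-DG (−0.28, adjusted p = 0.061, and 0.022 with the block). *Ndufaf3* was at 13.6, 11.5 and 11.3 CPM against 11.4, 9.92 and 9.32 CPM (−0.25, adjusted p = 0.14, and 0.038 with the block), and its groups overlapped. The summed level of the 8 factors was 237.2, 205.5 and 196.6 CPM in 1X glucose and 195.2, 184.1 and 192.3 CPM with 2-DG.

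Further complex I genes passed with the block alone. *Ndufs7*, the core subunit with the last iron-sulfur cluster before ubiquinone, was at 47.6, 45.4 and 42.2 CPM in 1X glucose and at 55.2, 52.0 and 50.2 CPM with 2-DG (0.22, adjusted p = 0.0509, and 0.0175 with the block). *Ndufa6* had a log2 fold change of 0.13 (adjusted p = 0.443, and 0.0426 with the block). *Ndufc1*, an accessory subunit of the membrane arm, was at 31.1, 27.3 and 27.4 CPM against 26.1, 22.0 and 22.3 CPM (−0.29, adjusted p = 0.079, and 0.00811 with the block), and *Ndufa5* (−0.16, 0.0262 with the block) and *Ndufs5* (−0.22, 0.0427 with the block) also lay lower.

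The other core subunits were close to their 1X levels. The log2 fold change with 2-DG was 0.01 for *Ndufs1* (95% interval −0.08 to 0.10), 0.04 for *Sdha*, 0.06 for *Sdhb* (−0.09 to 0.20), 0.08 for *Uqcrc1* (−0.01 to 0.18), 0.09 for the Rieske protein *Uqcrfs1* (−0.08 to 0.25), 0.03 for *Cox4i1* and −0.01 for *Cox5a* (−0.09 to 0.07). *Sdha* was at 271, 279 and 275 CPM in 1X glucose and at 293, 279 and 276 CPM with 2-DG. All 4 complex II genes lay between −0.01 and 0.06, and all 8 complex III genes between −0.04 and 0.09, with none past the threshold in either fit (edgeR, 0 at an unadjusted p under 0.05 in both complexes, DESeq2 0).

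The RNA of cell type markers moved with 2-DG. Summed primitive streak and mesoderm markers were at 395.3 ± 97.4 CPM with 2-DG and 709.8 ± 14.6 in 1X glucose (SD, n = 3 each), with 3 of 7 genes called lower, and summed neural markers at 130.9 to 313.7 CPM with 2-DG and 63.59 to 174.4 in 1X glucose, with 3 of 5 called higher. Summed pluripotency markers ran from 49.31 to 63.09 CPM with 2-DG and from 29.44 to 46.48 in 1X glucose, without overlap, with 0 of 4 genes called by edgeR (3 at an unadjusted p under 0.05) or DESeq2 and 3 called higher with the block. Summed endoderm markers ran from 6.412 to 59.39 and from 1.493 to 163.5 CPM, with 0 of 3 called by edgeR (0 at an unadjusted p under 0.05) or DESeq2 and 2 called lower with the block. No marker was at 0 in all libraries, and the streak and mesoderm sum ran from 282.8 to 451.5 CPM with 2-DG and from 694.3 to 723.5 in 1X glucose. Their part in the values above was not tested. In the libraries of passages 15 and 16 alone, a fit added after the data were seen, 3 genes were higher and 3 lower with 2-DG, against 10.5% and 9.53% of all genes (20.1% in all), and with the block 5 were higher and 8 lower, against 16.7% and 16.4% (33.1% in all). *Cox6b2* (log2 fold change 0.58, adjusted p = 0.0165), *Cox7a2* (−0.26, 0.0288) and *Cox7a2l* (0.19, 0.0364) passed there without the block by edgeR. Of the genes called over all passages, *Ndufv1* (−0.21, adjusted p = 0.0136) and *Atp5g3* (0.14, 0.0461) passed there too. *Ndufb7* (adjusted p = 0.0763), *Ndufb10* (0.0609) and *Atp5a1* (0.118) did not.

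Glucose removal and glucose excess were compared with 1X glucose to ask what the sugar itself does over the same day. None of the 93 genes passed the threshold in either comparison. For 0X against 1X glucose, edgeR called 0 genes, with 0 at an unadjusted p under 0.05, DESeq2 called 0 and the block called 0, and 0.0118% of all genes were called (0.0177% with the block). The median log2 fold change was −0.009, with a range from −0.50 for *Cox7a1* to 0.08. For 3X against 1X glucose, edgeR called 0 genes, with 0 at an unadjusted p under 0.05, and DESeq2 called 0. The block called 0 of the 93 genes, with a lowest adjusted p of 0.905 by edgeR. Without the block, 0.0% of all genes were called. The median was −0.011 and the range −0.20 to 0.12.

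The precision of these comparisons bounds what the fit without the block could have missed. The intervals and unadjusted p-values come from that fit, which leaves out the pairing by passage. Its common dispersion, the fitted spread between libraries, was 0.0316, against 0.0063 with passage as a block. Intervals with the block are not given here. The 95% intervals reached a median of 0.18 to either side of the estimate on the log2 scale, and lay wholly within 1.25-fold of no change for 77 of 93 genes in 0X and 80 of 93 in 3X glucose. For *Atp5b*, the intervals ran from −0.04 to 0.14 in 0X and from −0.04 to 0.13 in 3X glucose. For *Ndufs1* they ran from −0.10 to 0.08 and from −0.07 to 0.12, and for *Cox5a* from −0.09 to 0.07 and from −0.03 to 0.13. Libraries did not overlap for 3 genes in 0X (*Atp5b* 0.05, *Atp5d* −0.04, *Ndufaf6* −0.08) and for 2 in 3X glucose (*Cox5a* 0.05, *Cox6a1* 0.08), against 5.63% and 4.47% of all genes.

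Within single passages the small shifts had no shared direction. The median log2 difference of the 93 genes between 0X and 1X glucose was −0.029, −0.089 and 0.063 in passages 13, 15 and 16, with 31, 12 and 71 genes above 0. Between 3X and 1X glucose it was −0.045, −0.023 and 0.052. The summed level of all 97 genes was 9205 ± 331 CPM in 0X, 9200 ± 473 in 1X, 9220 ± 213 in 3X glucose and 9411 ± 390 with 2-DG (SD, n = 3 each), and the groups overlapped. The 3X against 0X comparison, a range of 63.75 mM, gave 0 calls by edgeR and by DESeq2, with 0.0118% of all genes called. Libraries did not overlap for 9 genes, against 9.01% of all genes, and 1 of the 93 genes, *Ndufb2* (log2 fold change 0.18, unadjusted p = 0.0475 by edgeR), was at an unadjusted p under 0.05.

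**Figure D4:**
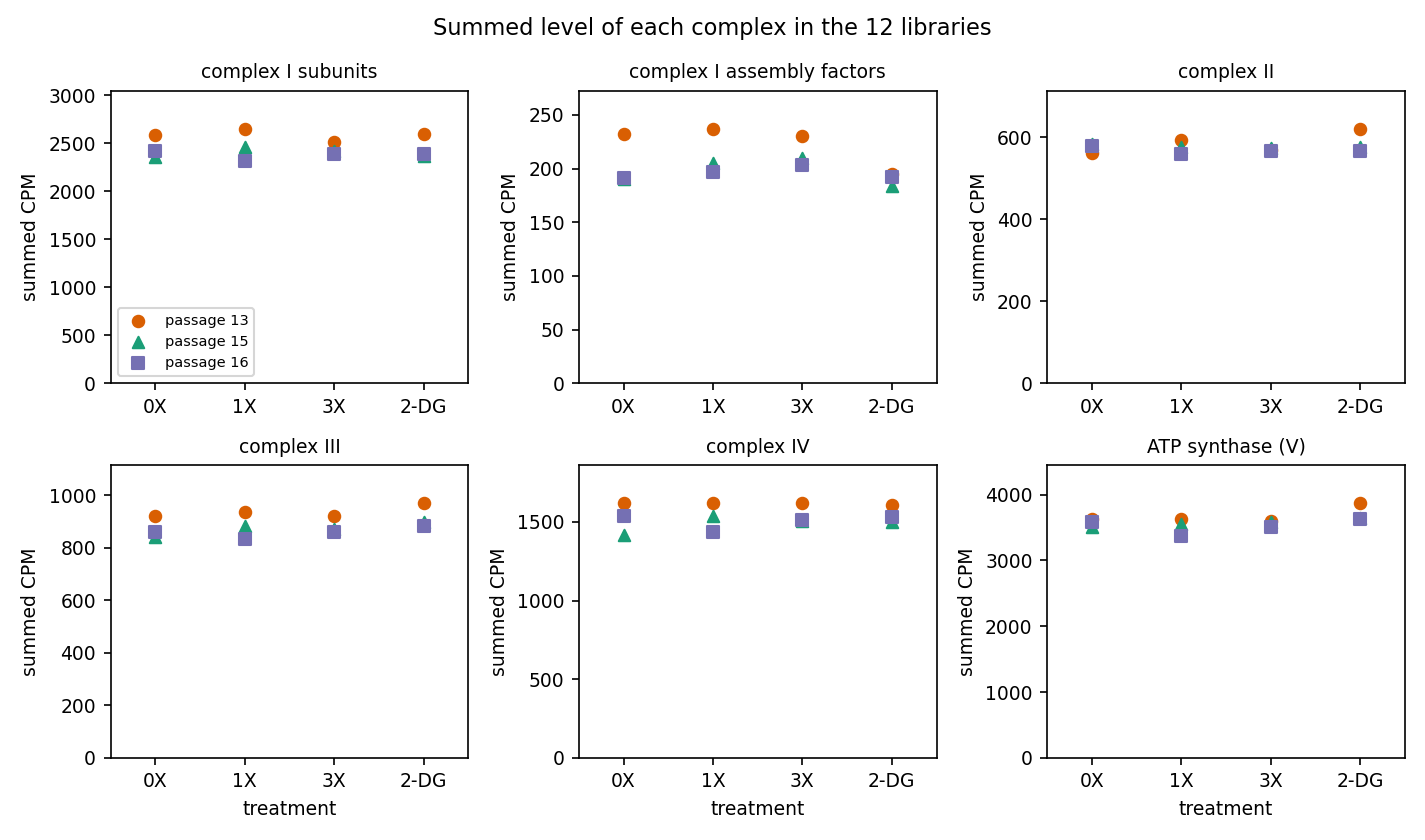
Summed CPM of each complex in the 12 libraries by treatment, with marker and colour for the ES cell passage and axes from 0. Sums for the ATP synthase are 3372 to 3625 in 1X glucose and 3636 to 3870 with 2-DG, while the sums of the other complexes overlap between these groups, apart from the assembly factors at 196.6 to 237.2 against 184.1 to 195.2.

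Against 0X glucose, which also limits glycolysis from glucose, 2-DG gave 4 calls: *Cox6b2* and *Ndufb10* rose and *Ndufb7* and *Ndufv1* fell, or 4.3% of 93 genes against 18.9% of all genes (9.86% higher and 9.04% lower). This comparison uses the same 2-DG libraries as the one with 1X glucose and is therefore not a separate replication. With passage as a block 14 genes rose and 9 fell, with 43.1% of all genes called (21.5% in each direction), and 17 genes (18.3%) did not overlap, against 37.9% of all genes.

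*Cox6b2* was at 27.3, 20.6 and 25.1 CPM in 0X glucose and at 38.3, 35.0 and 39.4 CPM with 2-DG, a fold of 1.54 (log2 fold change 0.63, SE 0.15, adjusted p = 0.0166, edgeR). It remained past the threshold without the 2-DG library of passage 15 (0.0364) or the 0X library of passage 13 (0.0214) or 16 (0.0452), and was at 0.0511 to 0.0677 without any of the other 3. Its most abundant transcript alone gave 0.45 with an adjusted p of 0.232. *Ndufb7* was at 73.1, 69.8 and 76.6 CPM in 0X glucose, and its fall with 2-DG (−0.23, SE 0.05, adjusted p = 0.0117) was lost only without the 2-DG library of passage 15 (0.0534). *Ndufb10* was at 50.7, 51.8 and 49.0 CPM in 0X glucose (0.22, SE 0.06, adjusted p = 0.0267), and was kept only without the 2-DG library of passage 16 (0.0127), with 0.0531 to 0.0924 otherwise. *Ndufv1* was at 134, 120 and 123 CPM (−0.22, SE 0.07, adjusted p = 0.045), and was kept only without the 2-DG library of passage 13 (0.048), with 0.0647 to 0.153 otherwise.

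Of the ATP synthase genes, none passed against 0X glucose without the block (edgeR, 7 at an unadjusted p under 0.05). With the block 6 of the 17 rose and 4 fell, where 43.1% of all genes were called (21.5% in each direction). DESeq2 called 3 higher and 1 lower without the block, and its share over all genes is not given here. *Atp5a1* was at 852, 886 and 889 CPM in 0X glucose (log2 fold change 0.10 with 2-DG, adjusted p = 0.108, and 0.0327 with the block). *Atp5g3* was at 195, 187 and 190 CPM (0.11, adjusted p = 0.0847, and 0.0111 with the block). In complex III, both core proteins passed with the block, *Uqcrc1* (0.10, adjusted p = 0.137, and 0.0271 with the block) and *Uqcrc2* (0.11, adjusted p = 0.291, and 0.0298 with the block).

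The passage of the ES cells was compared in a fit of another form, with more libraries on each side and smaller errors than the treatments had, so the counts of calls are not on 1 scale. In passage 13 against passages 15 and 16, over 4 libraries per passage and with treatment in the fit, 56 of 93 genes were higher (60.2%) and 1 was lower, by edgeR's quasi-likelihood test. The 4 libraries of a passage share that passage of ES cells and are not replicates of it. The p-values of this comparison measure the spread between libraries within a passage, not between cultures. Of all 16693 genes tested, 23.6% were higher and 23.1% were lower (46.8% in all). The median log2 fold change was 0.134, against 0.015 for all genes, with 86 of 93 genes above 0. Of the 57 called genes, 55 had the same direction in all 4 treatments and 43 remained called whichever library was left out. By complex, 26 of 40 complex I subunits, 4 of 8 assembly factors, 2 of 4 complex II genes, 6 of 8 complex III genes, 8 of 16 complex IV genes and 10 of 17 ATP synthase genes were higher. Within the treatments, the median log2 difference was 0.146 in 1X glucose, 0.137 in 2-DG, 0.140 in 0X and 0.070 in 3X glucose. When each gene's most abundant transcript was counted alone, 23 genes were higher and 1 lower, against 7.98% of all genes higher and 7.66% lower (15.6% in all).

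The largest called differences with passage were in accessory genes. *Ndufv3*, an accessory subunit of the NADH dehydrogenase module (chr17:31520115-31531326), was at 71.0, 67.7, 67.9 and 68.3 CPM in the passage 13 libraries of 1X, 2-DG, 0X and 3X and at 48.4 to 56.2 CPM in the other 8 libraries. The groups were wide apart (log2 fold change 0.41, SE 0.03, adjusted p = 2.02e-06, edgeR). *Cox7a2* was at 138, 95.4, 129 and 132 CPM in passage 13 and at 82.1 to 106 CPM in the others (0.38, SE 0.05, adjusted p = 0.000117), overlapping only through its 2-DG library. *Uqcrh* was at 127, 124, 126 and 125 CPM in passage 13 and at 99.8 to 109 CPM in the others (0.27, SE 0.02, adjusted p = 1.22e-05).

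*Ndufaf7*, a methyltransferase that acts in complex I assembly, was at 18.5 to 21.9 CPM in passage 13 and at 14.5 to 17.4 CPM in the others (0.34, SE 0.06, adjusted p = 0.000596). *Ndufb1* was at 17.4 to 21.2 CPM against 14.8 to 16.8 CPM (0.28, SE 0.06, adjusted p = 0.00217). Neither overlapped. *Uqcr11* (0.20, adjusted p = 0.00432) and *Ndufa11* (0.12, adjusted p = 0.00595), whose upstream sequences are given above, were also higher. *Cox4i2*, with 16 to 50 counts per library, had the highest fitted value of the called genes (0.64, SE 0.19, adjusted p = 0.019), but not without the passage 13 library of 1X (0.0953) or of 3X glucose (0.0769), nor by DESeq2 (0.101).

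*Ndufa5*, an accessory subunit of complex I, was the only gene lower in passage 13 (−0.11, SE 0.04, adjusted p = 0.0366). It was at 32.5 to 34.6 CPM there and at 32.6 to 38.6 CPM in the other libraries, which overlap. The call was lost without the passage 13 library of 1X (0.177) or 3X glucose (0.145), the passage 15 library of 1X (0.0814) or 3X (0.0712), or the passage 16 library of 1X (0.0683), 0X (0.0623) or 3X (0.0688), and by DESeq2 (0.0764).

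The fixed core subunits were divided. *Ndufv1* (0.13, adjusted p = 0.00147), *Sdhb* (0.12, 0.00419) and *Uqcrfs1* (0.12, 0.00591) were higher in passage 13 by edgeR. *Atp5a1* (0.00, 95% interval −0.06 to 0.05), *Atp5b* (0.03, −0.02 to 0.08), *Cox5a* (0.02, −0.02 to 0.07), *Cox4i1* (0.03), *Ndufs1* (0.03), *Sdha* (−0.04) and *Uqcrc1* (−0.05) did not pass the threshold. No gene without overlap between passage 13 and the others was lower, and 25 were higher (26.9%), against 6.34% of all genes higher and 7.9% lower. Summed over the genes, complex IV was at 1615 ± 5.83 CPM in passage 13, 1491 in passage 15 and 1504 in passage 16. Complex I was at 2589, 2402 and 2378 CPM (SD, n = 4 libraries of the same passage each).

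Short transcripts in general were higher in passage 13. Of all 674 tested genes with a longest coding transcript under 1000 bases, 44.1% were higher, with a median of 0.133, against 24.4% and 0.002 for those of 1000 bases or more. A length was listed for 93 of the 97 genes, from 360 to 4715 bases, with 53 under 1000. Of the short genes tested 31 of 49 were higher (63.3%, median 0.168), and of the longer ones 24 of 40 (60.0%, median 0.122). Among genes with a mean of at least 1000 counts, a limit chosen after the data were seen, 62.2% of 74 of these genes were higher and 21.2% of all 7347. The 7347 genes were not matched to these genes in length, so this contrast holds for abundance alone.

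**Figure D5:**
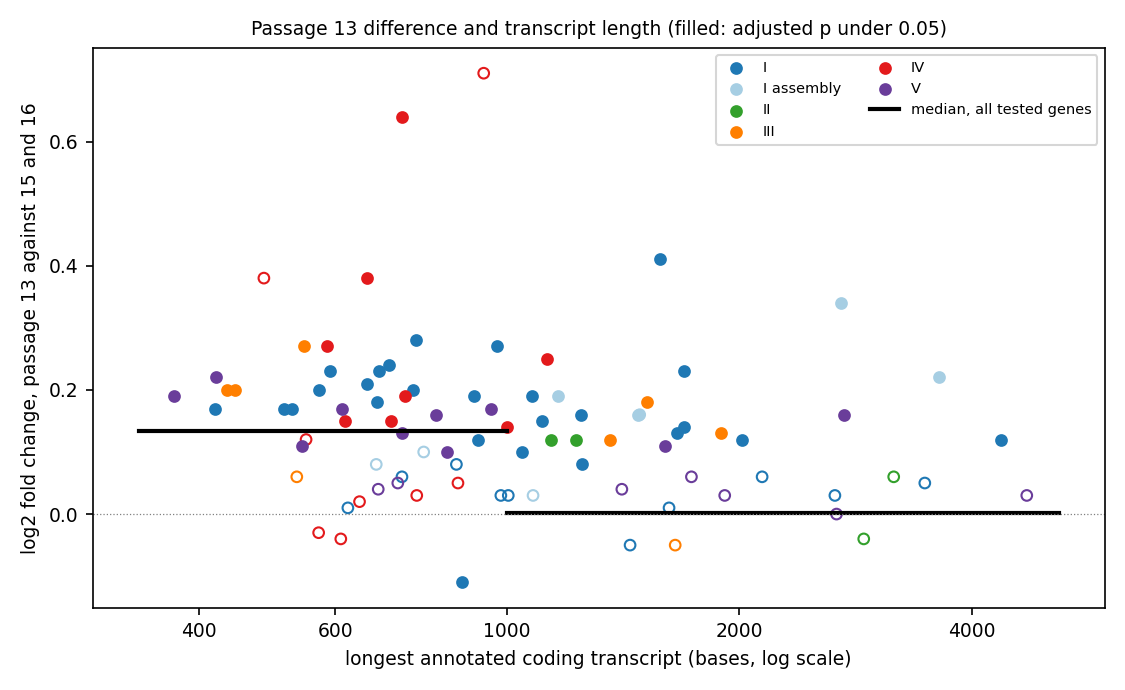
Log2 fold change of passage 13 against passages 15 and 16 for each tested gene with a listed length, plotted against the length of its longest coding transcript on a log axis, with filled points for an adjusted p under 0.05. Black lines mark the medians of all tested genes, 0.133 under 1000 bases and 0.002 from 1000 bases on, and most points of both length classes lie above them.

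The RNA of cell type markers differed in passage 13 too. Summed primitive streak and mesoderm markers were at 605.9, 653.2 and 644.5 CPM in passages 13, 15 and 16. Of these, *T*, *Mixl1* and *Wnt3a* were called higher in passage 13 and *Eomes*, *Tbx6* and *Meox1* lower. Summed pluripotency markers were at 47.44, 33.08 and 46.18 CPM. Summed neural markers were at 206.7 ± 72.3 CPM in passage 13 against 95.12 in passage 15 and 81.59 in passage 16, with 5 of 5 genes higher, and summed endoderm markers at 4.068 ± 2.83 CPM against 132.6 and 48.23, with 3 of 3 lower (SD, n = 4). Their part, and that of transcript length, in the passage differences was not tested, and passage cannot be told apart from whatever else was particular to that round of culture. Passages 15 and 16 differed from each other in 0 of the genes by edgeR (8 at an unadjusted p under 0.05, DESeq2 0), against 4.41% of all genes (2.32% higher and 2.09% lower), and the lowest adjusted p was 0.0796, for *Cox6b2* (0.22).

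Other genes of the pathway gave a background for these results. Of the 13 mitochondrially encoded subunits, none differed between 2-DG and 1X glucose (edgeR, 0 at an unadjusted p under 0.05, DESeq2 0, block 0). Among these 13, in passage 13, only COX3 was called higher (0.10, adjusted p = 0.0385, edgeR) and only ND4 (−0.16, 0.0112) and ND4L (−0.19, 0.00306) lower. In the same comparison 46.8% of all genes were called (23.6% higher and 23.1% lower).

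Of 15 genes for cytochrome c, cytochrome c1 and the synthesis of coenzyme Q, the carrier that links complexes I and II to complex III, 1 rose and 3 fell with 2-DG (26.7%, against 17.6% of all genes). *Coq2*, which attaches the isoprenoid tail to the ring of coenzyme Q, was at 73.0 ± 8.07 CPM in 1X glucose and 53.9 ± 1.77 CPM with 2-DG (SD, n = 3; log2 fold change −0.44, adjusted p = 0.00519, edgeR). The methyltransferase gene *Coq3* (−0.59, adjusted p = 0.00741) and *Coq10b* (−0.41, 0.0481) also fell, and *Pdss2*, for a subunit of the enzyme that makes the tail, rose (0.31, 0.0137). With passage as a block these genes passed again, and of the rest of the list only *Cycs* did. *Cycs* fell by 0.21 (adjusted p = 0.103, and 0.0063 with the block, edgeR). The block called 41.3% of all genes.

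Of 42 tested assembly factors outside the symbol pattern, 1 rose and 4 fell with 2-DG (11.9%, against 17.6% of all genes), and 5 rose and 16 fell with the block (50.0%, against 41.3%). *Ttc19*, a complex III factor, was at 84.2 ± 6.33 CPM in 1X glucose and 111 ± 1.74 CPM with 2-DG (SD, n = 3; 0.40, adjusted p = 0.0016). *Foxred1* for complex I (−0.34, 0.00828), *Sdhaf4* for complex II (−0.53, 0.0172), and *Cox15*, of heme A synthesis (−0.36, 0.00112), and *Taco1*, a translation activator (−0.27, 0.0313), both for complex IV, fell. The median of the 42 was −0.101.

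Of 16 tested regulators, the coactivator gene *Ppargc1b* rose (0.74, adjusted p = 0.0137) and *Tfb2m*, a mitochondrial transcription factor gene, fell (−0.28, 0.0151) with 2-DG. This was 12.5% of the list, against 17.6% of all genes. With the block 3 rose and 3 fell, where 41.3% of all genes were called. Of 6 carrier and channel genes only *Slc25a3* passed, where 17.6% of all genes did. *Slc25a3*, which brings phosphate into the matrix for the ATP synthase, was at 358 ± 2.12 CPM in 1X glucose and 456 ± 2.65 CPM with 2-DG (SD, n = 3; 0.35, SE 0.03, adjusted p = 0.000185). *Slc25a4*, *Slc25a5* and *Vdac1* to *Vdac3* did not pass (adjusted p 0.316 to 0.887, edgeR). None of these lists had a gene called in 0X or 3X against 1X glucose by edgeR or DESeq2, and edgeR gave 1 gene of the coenzyme Q list in 0X and 1 regulator in 3X glucose at an unadjusted p under 0.05.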

How the data were processed

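PolyA RNA of 12 gastruloid libraries, 3 per treatment, was sequenced. The authors deposited the estimated counts of 120312 RefSeq transcripts per library, made on Galaxy with Trim Galore, HISAT2, Picard duplicate removal and StringTie. The build is mm10 per the submitters' notes. Versions, annotation and strand setting of the counting are not given in the sources used here. They also deposited 3 tables of their own comparisons (log2 fold changes and adjusted p-values), not used here.

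All transcripts were matched by accession to RefSeq (GRCm38.p6) and their counts added up per symbol, a sum that hides shifts between transcripts of a gene. CPM are counts per 1000000 of the library total, 31902471 to 45956080 counts, times the TMM factor. The 4 groups were fitted together with edgeR 4.0.16 (glmQLFit, glmQLFTest, filterByExpr, TMM) in R 4.3.3, without a passage term, on 16966 genes, and passages were compared on 16693 genes with treatment in the fit. Tests were two-sided, and p-values were adjusted over all genes by the Benjamini-Hochberg method with a threshold of 0.05. Alternatives were DESeq2 1.42.0, median-of-ratios factors, no filter, the most abundant transcript alone, only the groups compared, passage as a block and leaving out each library. Fits of passages 15 and 16 alone were added after the data were seen. The fits were tested on simulated data.

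The labels give each replicate number an ES cell passage, which pairs libraries. Deviations from group means correlated at 0.0963 to 0.623 in the 18 pairs of the same passage and at no more than 0.191 in other pairs. No pair of libraries shared more than 1.88% of its values. That the libraries of a group came from separate cultures rests on the passage labels, and p-values measure the spread between these libraries. The paper names PBS as the control of 2-DG, and the libraries compared here are labelled 1X.

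The genes and lists were chosen with earlier results of these data known. Named with values were the called genes of each complex with 2-DG, up to 5 called genes in any other comparison and direction, fixed core subunits and isoform families, and the genes highest and lowest per length in each complex. Genes named because they passed only with the block or did not overlap, with *Uqcrh*, *Uqcr11*, *Ndufa11* and the genes of the other lists, were chosen after their values were seen. Motif letters were searched from 250 bases before to 50 after the listed start.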

Additional observations from a re-analysis of the deposited data

Results flagged for a closer look

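Both pseudogene symbols that the choice of genes leaves out had counts, a signal outside the main measurement. *Ndufs5-ps* had a mean of 18.3 CPM (572 to 865 counts per library), above the 14.1 CPM of its parent gene *Ndufs5*. *Cox7c-ps1* had a mean of 4.98 CPM (130 to 275 counts), against 79.6 CPM for *Cox7c*, and was higher in passage 13 (log2 fold change 0.44, SE 0.08, adjusted p = 0.000972, edgeR's quasi-likelihood test). How the reads were divided between these copies and their parents was not tested.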

How the results depend on the processing

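Among values of single genes, direction and side of the threshold were the same in 226 cases under the alternatives that kept all libraries or passages 15 and 16, with 16 newly past the threshold, 31 no longer past it and 7 reversed. With 1 library left out they were the same in 205 cases, with 1, 46 and 12 of these changes. The values of *Cox4i2*, *Cox7a1* and *Ndufa4l2* rest on only 8 to 56 counts per library. Unless given, the cause of a change was not tested.

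The number of genes higher and lower with 2-DG against 1X glucose was 3 and 2, and was 9 and 12 with passage as a replicate block, 7 and 5 with DESeq2, 1 and 0 with the most abundant transcript, 0 and 0 with only the groups compared, and 5 and 8 in passages 15 and 16 with the block. It was 0 higher with no filter. Against 0X glucose it was 2 and 2, and was 14 and 9 with the block, 1 and 0 with the most abundant transcript, 1 and 1 with only the groups compared, and 4 and 5 in passages 15 and 16 with the block. It was 5 higher with DESeq2 and 1 lower with no filter. In passage 13 it was 56 and 1, 23 higher with the most abundant transcript, and 0 lower with no filter or DESeq2. The share of all genes that DESeq2 called is not given here, so its counts have no background beside them.

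Leaving out 1 library gave 0 to 4 higher and 0 to 3 lower with 2-DG against 1X glucose (median log2 fold change −0.05 to 0.061), and 0 to 1 and 0 to 2 against 0X glucose (−0.024 to 0.077). The median was −0.057 to 0.047 for 3X against 1X and −0.021 to 0.064 for 3X against 0X glucose. Passage 13 gave 45 to 59 higher and 0 to 2 lower, and passage 16 against 15 gave 0 to 1 higher.

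The log2 fold changes that reversed with 2-DG against 1X glucose were small or of rare isoforms, *Cox7a2l* apart. They were −0.02 for *Atp5g3* and −0.50 for *Cox7a2l* with the most abundant transcript, −0.01 for *Ndufs1* with no filter, and in passages 15 and 16 alone 0.0 for *Sdha* and 0.02 and, with the block, 0.01 for *Cox4i2*. Leaving out 1 library gave −0.02 to 0.03 for *Ndufs1*, 0.0 to 0.11 for *Sdhb*, −0.02 to 0.05 for *Cox4i1*, −0.47 to 0.10 for *Cox4i2*, −0.02 to 0.01 for *Cox5a*, −0.09 to 0.02 for *Cox6b1*, −0.03 to 0.08 for *Cox7b*, −0.07 to 0.0 for *Ndufa4* and −0.95 to 0.18 for *Ndufa4l2*.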
